A study of Mus musculus with 2 samples.

Results

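The BCL2 family decides whether a developing T cell lives or dies, and 10 of its genes were followed here in thymus chromatin: 4 survival genes (Bcl2, Bcl2l1, Mcl1 and Bcl2a1b) and 6 death genes (Bcl2l11, Bbc3, Pmaip1, Bax, Bak1 and Bid). They were listed by name, not by any measured value, and are 10 of 21701 protein-coding genes compared. Earlier results of these data were known when the genes were chosen. The assay was DNase-seq, which reads the positions where DNase I cuts nuclear DNA and so maps open chromatin. Thymus tissue came from 2 female mice aged 14 days of the hybrid B6CASTF1/J, whose parents are C57BL/6J and CAST/EiJ. These are biological replicates 1 and 2 of a single group with no treatment named; their labels share a donor identifier but number the animals differently, so they were treated as separate mice. Whole tissue was used, so a weaker peak in all cells and a peak open in fewer cells cannot be told apart.

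Thymocytes made by gene rearrangement are mostly discarded, either for lack of a signal from their receptor or because that signal is too strong. The survival proteins BCL2, BCL-XL (from Bcl2l1), MCL1 and A1 (from the Bcl2a1 genes) bind and restrain the pore-forming proteins BAX and BAK. The BH3-only proteins BIM (Bcl2l11), PUMA (Bbc3), NOXA (Pmaip1) and BID tip the balance towards death by occupying the survival proteins or by activating BAX and BAK. When the pore formers act, cytochrome c leaves the mitochondria and activates caspases. BIM is known for its part in deleting self-reactive thymocytes, PUMA and NOXA as targets of p53, and BCL-XL for keeping CD4+CD8+ thymocytes alive.

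The authors deposited 97051 peaks and 276400 footprints for replicate 1 and 108010 peaks and 318156 footprints for replicate 2. A footprint is a short stretch inside open DNA that is cut less than its surroundings. The value of a peak is the authors' signal, called its strength below, and because its scaling differs between samples each peak is also given as a percentile among all peaks of its own replicate. Promoter peaks lay within 500 bp of an annotated transcription start site (TSS) of the gene, and distal peaks lay more than 500 bp from every annotated TSS, inside the gene body or within 50 kb of either end. The tissue label matched its markers: all 14 listed thymocyte genes showed a promoter peak in each mouse, against 2 of 6 B cell, 2 of 6 thymic epithelial, 2 of 6 myeloid, 2 of 6 endothelial and mesenchymal and 0 of 6 hepatocyte genes. Of the thymic epithelial markers Foxn1, Psmb11, Krt5 and Krt8 had no promoter peak in either replicate, while Aire had one at a mean percentile of 92.5 and Epcam at 59.6. Of the B cell markers Pax5 had none, while Ebf1 had one at a mean percentile of 90.7, within the range of the thymocyte markers. Of the endothelial and mesenchymal markers, Pecam1 (89.1) and Pdgfra (84.4) also lay within that range. The myeloid markers with a promoter peak, Itgam (59.9) and Lyz2 (32.1), lay below it. The part of other cell types in the values below was not tested. With 1 group of 2 mice, no difference between conditions exists to be tested, and the values below are descriptions.

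Every member had a promoter peak in replicate 1 and in replicate 2, as did 58.6% of coding genes. Survival and death genes therefore did not differ in whether the promoter was open. In strength, the promoters of 5 death genes (Bcl2l11, Bbc3, Bax, Bak1 and Bid) stood among the strongest 10% of all peaks in both replicates, and of the survival genes Bcl2l1 did. This made 6 of 10 members, against 29.6% of coding genes and 50.4% of those with a promoter open in both mice. The other 3 survival genes and Pmaip1 lay lower, and Bcl2l1 lay above every other member.

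**Figure D1:**
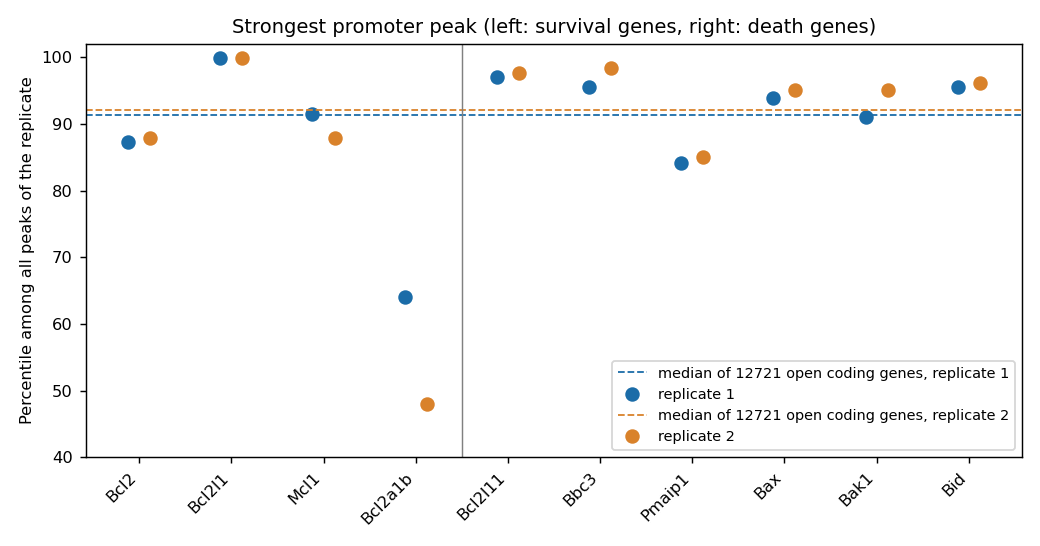
Percentile of the strongest promoter peak of each gene among all peaks of its replicate (vertical axis, starting at 40) for the 4 survival genes on the left and the 6 death genes on the right; points are the 2 replicates and dashed lines the medians of the 12721 coding genes open in both. Bcl2l1 sits at the top, Bcl2a1b at the bottom, and 5 of the 6 death genes at or above 91.1 in both replicates.

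Bcl2l1, the gene of BCL-XL, had the strongest promoter of the family. Its strongest peak measured 36.8 in replicate 1 and 14.1 in replicate 2, which is rank 44 and rank 87 from the top of each list (percentiles 99.96 and 99.92). The called borders of the peak were the same in both replicates, as were those of the strongest promoter peaks of Pmaip1 and Bak1. It lay in an intron, centred 378 bp downstream of the outermost TSS, while the peak over that TSS itself measured 11.6 and 9.09. Another peak, at an inner TSS 1062 bp downstream, measured 7.98 and 4.46. The ratio of replicate 2 to replicate 1 at the strongest peak was -1.38 on the log2 scale, against a median of -0.64 (quartiles -1.08 and -0.18) over all coding genes with a promoter peak, and 12.8% of these genes had a lower ratio. The sequence of this peak is shown because it carried the highest values of the family, with capitals marking bases inside a footprint in both replicates, on the strand of the gene.
Bcl2l1 intronic promoter peak, chr2:152831221-152831480 (mm10, minus strand): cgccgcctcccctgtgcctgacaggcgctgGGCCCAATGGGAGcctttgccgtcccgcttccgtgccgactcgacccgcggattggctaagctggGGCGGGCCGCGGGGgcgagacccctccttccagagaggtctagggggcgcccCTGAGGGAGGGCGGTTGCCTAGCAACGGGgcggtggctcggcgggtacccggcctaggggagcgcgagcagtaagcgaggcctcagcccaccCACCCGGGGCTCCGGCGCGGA
It held 4 footprints found in both replicates, 3 of which contained a consensus motif. Of these, 2 held the SP/KLF motif GGGGCGG, which is bound by SP and KLF factors of CpG-rich promoters, and 1 held the NFY motif CCAAT. For each of 20 consensus strings, both strands were searched and a footprint was counted when the whole string lay within it, with 5 bp added to each side, in both replicates, so that a stretch can count for several strings. A match describes the letters and not a bound factor. GGGGCGG occurs in 23.3% and CCAAT in 37.6% of 32619 RefSeq promoter windows.

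Mcl1, whose protein is needed throughout thymocyte development and turns over quickly, had a promoter peak of 6.16 in replicate 1 and 2.82 in replicate 2 (percentiles 91.5 and 87.8). Replicate 2 had a further peak of 2.59 about 0.6 kb inside the gene that replicate 1 lacked. The replicates fell on opposite sides of the 90th percentile, so Mcl1 was not counted among the strongest promoters. The upstream part of the Mcl1 peak is shown for its footprint with the SP/KLF motif, centred 83 bp before the TSS.
Mcl1 promoter peak, upstream part, chr3:95658621-95658787 (mm10, plus strand): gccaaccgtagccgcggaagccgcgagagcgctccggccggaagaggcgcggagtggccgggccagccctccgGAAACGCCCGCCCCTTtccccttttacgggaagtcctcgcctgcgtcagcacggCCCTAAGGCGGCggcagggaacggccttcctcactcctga

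Bcl2, the founding survival gene, which is high in mature rather than in CD4+CD8+ thymocytes, measured 4.10 and 2.82 at its strongest promoter peak (percentiles 87.3 and 87.8), which in replicate 1 was chr1:106714281-106714500 (mm10). In replicate 1 the signal was called as 2 adjoining peaks (4.10 upstream and 3.42 downstream of the TSS) and in replicate 2 as 1 peak across both. A peak of 1.03 in coding sequence, near the inner TSS, in replicate 1 overlapped 2 peaks of replicate 2, of 0.616 and, just beyond the 500 bp limit and so counted as distal, of 1.55. Both Bcl2 and Mcl1 in replicate 2, and Bcl2 in replicate 1, lay below the median of open coding genes, which was 91.4 in replicate 1 and 92.2 in replicate 2.

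Bcl2a1b, 1 of the closely related A1 genes, had the weakest promoter peak of the 10 genes, at 1.20 and 0.610 (percentiles 63.98 and 47.9). Its false discovery rate in the authors' deposited track was 2.58e-09 at its lowest in replicate 1 and 8.47e-05 in replicate 2. Its sequence is repeated elsewhere: 16.9% of the 32-base words of its least unique promoter peak occurred once in the reference genome, against at least 97.02% for every promoter peak of the other 9 genes. Reads from repeated words cannot be placed at 1 gene, and the sources used here do not say how they were treated, so the value of Bcl2a1b is uncertain. Its relatives were also weak, with 0.545 in replicate 1 and 0.610 in replicate 2 at Bcl2a1a, and with 1.03 and 0.501 at Bcl2a1d. The RefSeq promoter windows of Bcl2a1a and Bcl2a1d were 94.1% identical, and that of Bcl2a1b was 73.8% and 70.6% identical to them. The upstream part of the Bcl2a1b peak is shown because it was the CpG-poorest of the survival promoters (observed over expected CpG 0.338) and held 1 footprint with the AP-1 motif TGANTCA, found in 7.85% of RefSeq promoter windows. Most letters of this AP-1 match lay in the 5 bp added to the side of the footprint, outside the capitals.
Bcl2a1b promoter peak, upstream part, chr9:89199081-89199208 (mm10, plus strand): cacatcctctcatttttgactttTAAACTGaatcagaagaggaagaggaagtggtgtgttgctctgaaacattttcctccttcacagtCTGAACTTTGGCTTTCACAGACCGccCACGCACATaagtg

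Among the death genes, Bcl2l11 (BIM) had the highest mean promoter percentile, with strengths of 13.5 and 7.23 (percentiles 97.1 and 97.7). Bbc3 (PUMA) followed closely, with 10.3 and 8.10 (95.5 and 98.4), and the ranges of these 2 genes over replicates overlapped. Bid measured 10.5 and 6.01 (95.6 and 96.2), within the range of Bbc3, with the peak at chr6:120916781-120916980 in replicate 1. All 3 stood above the median of open promoters in both mice. The Bcl2l11 peak is shown for its pair of SP/KLF footprints, 1 of which also held the NFY motif.
Bcl2l11 promoter peak, upstream part, chr2:128125861-128126037 (mm10, plus strand): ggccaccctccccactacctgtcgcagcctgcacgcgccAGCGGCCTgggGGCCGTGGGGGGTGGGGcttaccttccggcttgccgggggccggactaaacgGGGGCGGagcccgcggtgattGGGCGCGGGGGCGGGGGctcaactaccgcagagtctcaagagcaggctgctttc

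The strongest Bbc3 promoter peak lay in an intron, about 0.5 kb downstream of the 1 TSS that the annotation used here gives. A peak of 7.26 and 6.63 covered that TSS, which itself lies inside the annotated gene. RefSeq has 3 promoter windows for Bbc3. The intronic peak held 7 pairs of overlapping footprints, and 1 of them, 31 bp wide in replicate 1 and 34 bp in replicate 2, contained the consensus of CTCF, the protein that marks boundaries between chromatin domains. This footprint was centred 515 bp downstream of the TSS. The consensus is in 0.46% of RefSeq promoter windows, which run from 250 bp before a start to 50 bp after it. Among all distal peaks of replicates 1 and 2 it was in 6.21% and 6.99%. The sequence is shown for this match, whose capitals run across it without a break.
Bbc3 intronic promoter peak, chr7:16310001-16310240 (mm10, plus strand): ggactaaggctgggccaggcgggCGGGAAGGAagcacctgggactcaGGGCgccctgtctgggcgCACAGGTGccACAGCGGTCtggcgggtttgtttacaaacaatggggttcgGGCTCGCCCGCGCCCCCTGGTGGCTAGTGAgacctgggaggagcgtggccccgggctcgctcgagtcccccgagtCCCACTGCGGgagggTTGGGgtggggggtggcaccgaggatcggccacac

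The pore formers were similar to each other. Bax measured 8.34 and 5.26 (percentiles 94.0 and 95.1), and Bak1 5.90 and 5.29 (91.1 and 95.1), with overlapping ranges. The Bak1 peak, chr17:27028541-27028740 in both mice, lay over the inner of 2 annotated TSSs, 315 bp inside the outer one. In the Bax promoter peak all 4 footprints found in both replicates held a motif: NRF1 (GCGCANGCG), SP/KLF and, at 2 places, the E-box CACGTG bound by MYC and USF factors. In replicate 2 each CACGTG ran into the 5 bp added to the side of its footprint. The NRF1 and CACGTG strings occur in 6.28% and 7.20% of RefSeq promoter windows. The upstream part, printed to show this row of footprints, ends at the TSS.
Bax promoter peak, upstream part, chr7:45466899-45467000 (mm10, minus strand): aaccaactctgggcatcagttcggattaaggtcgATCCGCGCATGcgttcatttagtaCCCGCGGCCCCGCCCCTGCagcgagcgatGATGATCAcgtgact

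Pmaip1 (NOXA) was the weakest death gene, at 3.18 and 2.36 (percentiles 84.1 and 85.0), and its peak had the same borders in both replicates. It ranked below Bcl2 and above Bcl2a1b, with no overlap of the replicate ranges on either side. Of its 7 footprint pairs, 1 held the SP/KLF motif and 1 the CRE motif TGACGTCA, bound by CREB and ATF factors.

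**Figure D2:**
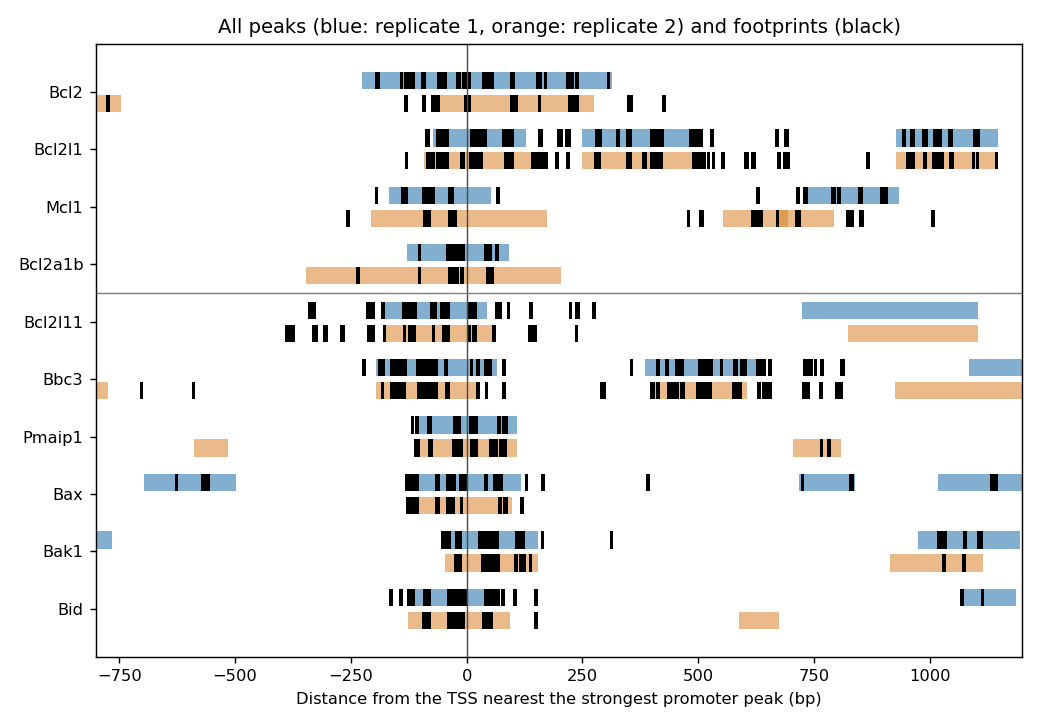
All called peaks, promoter or distal (blue bars, replicate 1; orange bars, replicate 2) and footprints (black) by distance in bp from the TSS nearest the strongest promoter peak of each gene, with survival genes above the line and death genes below it. Each gene has a peak at or across 0 in both replicates, and at Bcl2l1 and Bbc3 a further peak begins less than 500 bp downstream in both.

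Over the groups, the median promoter percentile was 89.4 in replicate 1 and 87.8 in replicate 2 for survival genes and 94.7 and 95.7 for death genes. The groups overlapped, since the survival genes ranged from 63.98 to 99.96 and from 47.9 to 99.92, and the death genes from 84.1 to 97.1 and from 85.0 to 98.4. The mean over replicates gave a difference of medians of -6.58 percentile points, survival minus death. It kept its direction in each replicate alone and without Bcl2a1b (-5.54). Genes are not replicates of a condition, so no test was made. CpG content did not follow the same order: the observed over expected CpG ratio around the TSS nearest the strongest peak was 1.07 at Bcl2l1 and 1.12 at the weak Pmaip1, and 0.366 at Bak1, with a median of 0.387 over all RefSeq promoter windows. GGGGCGG was present in the RefSeq windows of 6 of the 9 member genes that have one (Bcl2, Mcl1, Bcl2l11, Bbc3, Bax and Bid). Some genes have several windows, and by window it was in 9 of 14, against 23.3% of all 32619. GC content around the TSS was 57.3% to 78.7% at these 6 genes, against a median of 53% over all RefSeq windows. The part of GC content in the motif count was not tested. The consensus of p53 was in none of the 14 windows of the 9 genes and in 3 of all 32619. So rare a string would be missing from almost any 14 windows, so its absence says nothing about these genes. Pmaip1 is the member without a RefSeq window and was not part of these counts.

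Distal peaks were dense around most of the family. In replicate 1 the 10 windows held 158 distal peaks and in replicate 2 they held 193. The density exceeded the median of coding genes (3.88 peaks per 100 kb in replicate 1 and 4.85 in replicate 2) in both replicates for 8 of the 10 genes, against 44.0% of coding genes. The exceptions were Bcl2a1b, with 4.60 and 3.68, and Pmaip1, with 2.803 and 8.41. Of the distal peaks, 91 lay in introns, 15 in exons and 52 between genes in replicate 1, and 114, 19 and 60 in replicate 2.

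**Figure D3:**
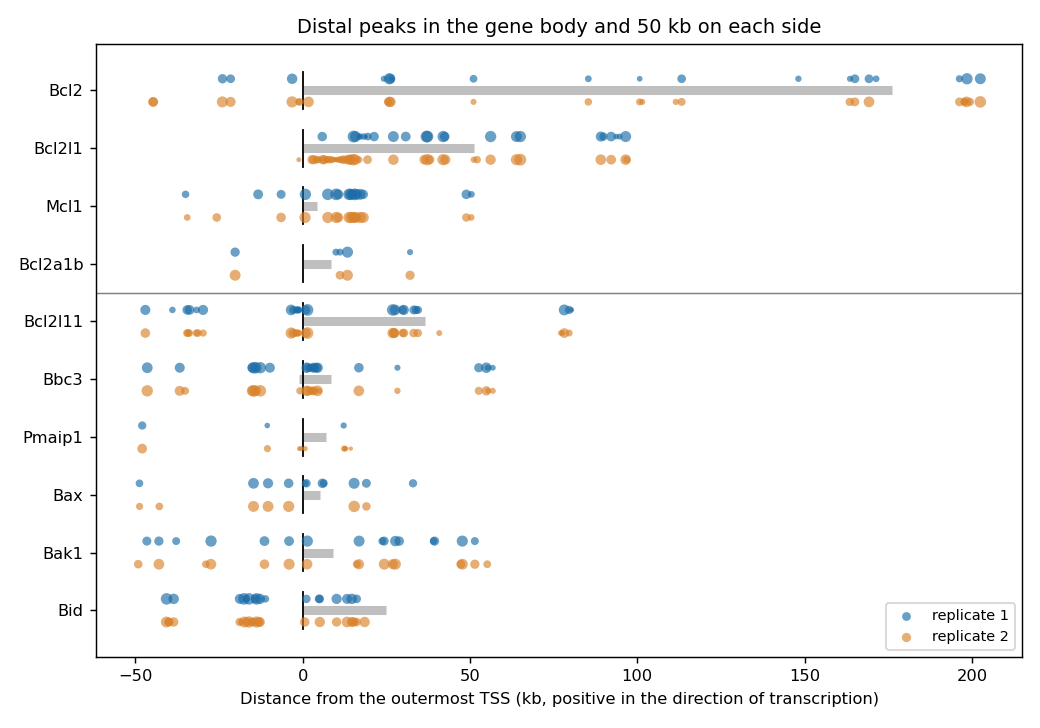
Distal peaks (points, larger for a higher percentile) by distance in kb from the outermost TSS, with replicate 1 in blue above and replicate 2 in orange below each gene body (grey bar). Peaks gather downstream of Mcl1, upstream of Bbc3 and Bid and on both sides of Bcl2l11, and replicate 2 shows a dense row in the first 15 kb of Bcl2l1.

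Around Bcl2l1, 24 distal peaks were called in replicate 1 and 43 in replicate 2. The leading one found in both replicates lay in an intron 15.2 kb downstream of the outermost TSS, with strengths of 16.0 and 3.92 (percentiles 97.9 and 92.0). It was the strongest such element of the 10 genes in replicate 1. Its 4 footprints found in both replicates included 1 with the E-box CAGCTG, the form bound by E proteins. Most letters of this match lay in the 5 bp added to the side of the footprint, outside the capitals.
Bcl2l1 intronic element, chr2:152816361-152816660 (mm10, minus strand): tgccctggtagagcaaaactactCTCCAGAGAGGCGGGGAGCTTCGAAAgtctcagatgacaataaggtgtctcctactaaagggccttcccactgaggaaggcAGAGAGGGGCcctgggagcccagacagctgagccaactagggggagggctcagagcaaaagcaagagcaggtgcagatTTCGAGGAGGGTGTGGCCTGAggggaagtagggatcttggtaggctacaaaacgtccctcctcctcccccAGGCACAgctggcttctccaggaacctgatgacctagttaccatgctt

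The 2 mice differed in what lay between the Bcl2l1 promoter and this element. From 2 to 15 kb downstream of the outermost TSS, replicate 1 had 1 distal peak, covering 0.73% of the bases, and replicate 2 had 23, covering 62.6%. A promoter peak at the start of the stretch, of 1.06 and 0.996, was called in both mice, and with every peak that reaches into the stretch the covered share was 2.41% and 66.2%. In the authors' false discovery rate track, 4.07% of this stretch was listed under 0.05 in replicate 1 and 89.6% in replicate 2. Each of the 23 distal peaks was weak, with a median strength of 0.386 and a maximum of 1.20, and some overlapped one another, so that merging left 15. Peaks overlapping an earlier peak made up 1.03% of the list of replicate 1 and 2.90% of that of replicate 2. When the genome was cut into 209372 bins of 13 kb, a size chosen after the stretch had been seen, 8 bins had at least 50% of their bases under peaks in replicate 2 and 1 in replicate 1. Apart from these interior peaks, the promoter and the intronic element flanking the stretch were called in both mice.

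**Figure D4:**
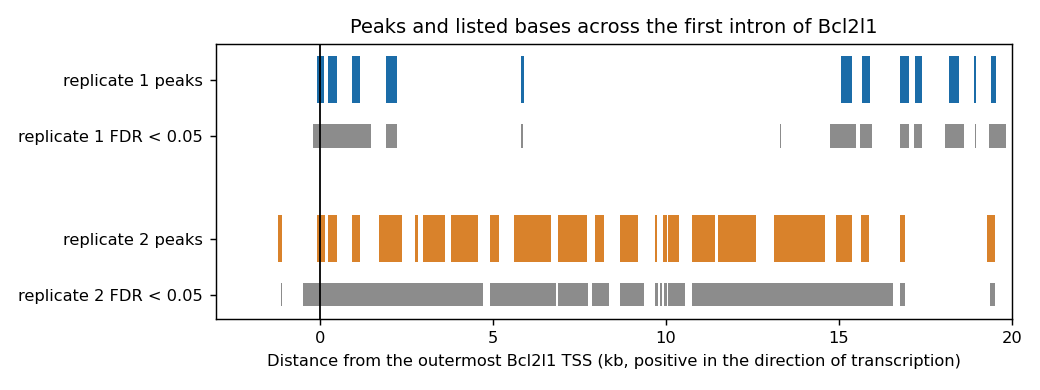
Peaks (coloured bars) and bases listed under a false discovery rate of 0.05 (grey bars) in each replicate, by distance in kb from the outermost TSS of Bcl2l1. Both replicates have peaks within 2.5 kb of the TSS and near 15 kb, and only replicate 2 has peaks along most of the stretch between them.

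Mcl1 had its distal peaks in a run downstream of the gene. Between 7 and 18.5 kb from the TSS, a stretch between genes, replicate 1 had 11 peaks and replicate 2 had 10, and every one overlapped a peak of the other mouse. They covered 20.9% and 25.1% of the stretch. The element named by its lower percentile, 10.0 kb downstream at chr3:95668681-95668920 in replicate 1, measured 9.71 and 2.65 (95.1 and 86.9). The strongest peak of the run was a different element in each mouse, at 10.1 in replicate 1 and 2.69 in replicate 2. In each mouse 6 distal peaks lay elsewhere in the Mcl1 window.

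Bcl2 has the longest gene body of the family, 176.1 kb, and its 19 and 26 distal peaks were spread over its window at 6.88 and 9.42 per 100 kb. The element highest by its lower percentile lay beyond the 3' end, 202.5 kb from the TSS at chr1:106511681-106511860, with 2.82 and 4.46 (82.5 and 93.4). Bcl2a1b had 5 and 4 distal peaks, and 7 of these 9 had fewer than 50% unique 32-base words, so their place is as uncertain as that of its promoter.

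Bcl2l11 had 24 and 27 distal peaks, 17.6 and 19.8 per 100 kb, and every one was closer to the TSS of Bcl2l11 than to that of any other coding gene. They fell into groups: 12 and 13 upstream of the gene, 9 and 9 inside it and 3 and 5 downstream. The leading element was 1.5 kb inside the gene, in an intron, with 10.3 and 6.10 (95.5 and 96.4), a little below the percentiles of the promoter. Of its 5 footprints found in both replicates, 2 held the SP/KLF motif and 1 the NFY motif, the same kinds of motif as in the promoter peak printed above. The last of the SP/KLF strings runs past the end of the peak and is not complete in the sequence below.
Bcl2l11 intronic element, chr2:128127401-128127580 (mm10, plus strand): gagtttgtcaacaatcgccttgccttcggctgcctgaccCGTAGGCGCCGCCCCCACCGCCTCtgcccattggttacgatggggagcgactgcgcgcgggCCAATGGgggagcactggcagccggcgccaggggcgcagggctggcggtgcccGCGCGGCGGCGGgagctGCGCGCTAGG

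Bbc3 had 22 distal peaks in each mouse, 20.03 per 100 kb. A group of 4 lay 12 to 15.5 kb upstream in both replicates. Its leading element, 14.6 kb upstream at chr7:16294881-16295100, measured 6.62 and 6.81 (92.1 and 97.3). The coding TSS nearest to that element was of Ccdc9, 8200 bp away, and not of Bbc3. Another 9 and 7 weak peaks lay in the gene body between 1 and 5 kb, with maxima of 1.84 and 1.58. With every peak that reaches into this stretch, 66.6% and 69.05% of it was covered. All of the peaks in these groups overlapped a peak of the other mouse, against 1 of the 23 in the Bcl2l1 stretch of replicate 2. Bid had 17 and 23 distal peaks, all nearest to its own TSS, and a run 12 to 19.5 kb upstream held 7 and 10 of them. The leading Bid element, in an exon of the neighbouring Mical3 (chr6:120932781-120932940), measured 6.32 and 3.06 (91.7 and 89.0).

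The pore formers lie among other genes, which limits what their windows say, and other windows share this limit. At Mcl1, 8 of 17 and 7 of 16 distal peaks were nearest to its own TSS, and at Bbc3 12 of 22 and 11 of 22. At Bcl2l1 13 of 24 and 32 of 43 were, and at Bcl2a1b 1 of 5 and 1 of 4. Bax has 9 other coding genes in its window, and only 3 of its 11 distal peaks in replicate 1 and 1 of 7 in replicate 2 were nearest to a Bax TSS. Its leading element was in an intron of Gys1, with 2.85 and 3.59 (82.7 and 91.0), and is shown because its footprint of 31 and 32 bp contained the CTCF consensus, as did the one at Bbc3.
Bax window element in Gys1, chr7:45451441-45451600 (mm10, minus strand of the genome, as Bax): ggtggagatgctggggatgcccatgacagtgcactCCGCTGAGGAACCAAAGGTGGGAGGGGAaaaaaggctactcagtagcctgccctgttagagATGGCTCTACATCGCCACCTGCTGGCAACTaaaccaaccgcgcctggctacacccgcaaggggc
The CTCF consensus was present in the central 200 bp of 6.21% and 6.99% of all distal peaks of replicates 1 and 2. Of the 16 distal peaks of Bak1 in each mouse, 1 was nearest to a Bak1 TSS, and its leading element lay in an intron of Ggnbp1 and Zbtb9 (chr17:26981161-26981440), with 3.39 and 1.73. Pmaip1 has no other coding gene in its window, and its 3 and 9 distal peaks were weak: none was above the 63.1 percentile in either mouse. The best of them measured 0.660 and 0.939, so NOXA had both the weakest promoter of the death genes and the weakest distal elements of the family.

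Median distal density was 11.4 and 12.4 peaks per 100 kb for survival genes and 14.1 and 16.5 for death genes. The difference of -3.35 over the means of both mice rested on single genes: without Bcl2a1b, or without Bcl2, it was 0.48, and with 25 kb of flank instead of 50 kb it was 0.77. No direction can therefore be given for distal peaks. The same held for footprints, with medians of 49.7 and 54.1 per 100 kb for survival genes and 63.9 and 61.8 for death genes, where the difference of -7.20 became 23.1 without Bcl2a1b or without Bcl2. Within the survival genes, Bcl2l1 and Mcl1 had 74.8 to 105 footprints per 100 kb, and Bcl2 and Bcl2a1b had 21.2 to 28.6. Within the death genes, Bbc3 had 113 and 99.3 and Pmaip1 12.1 and 16.8. The range inside each group was wider than the distance between their medians.

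**Figure D5:**
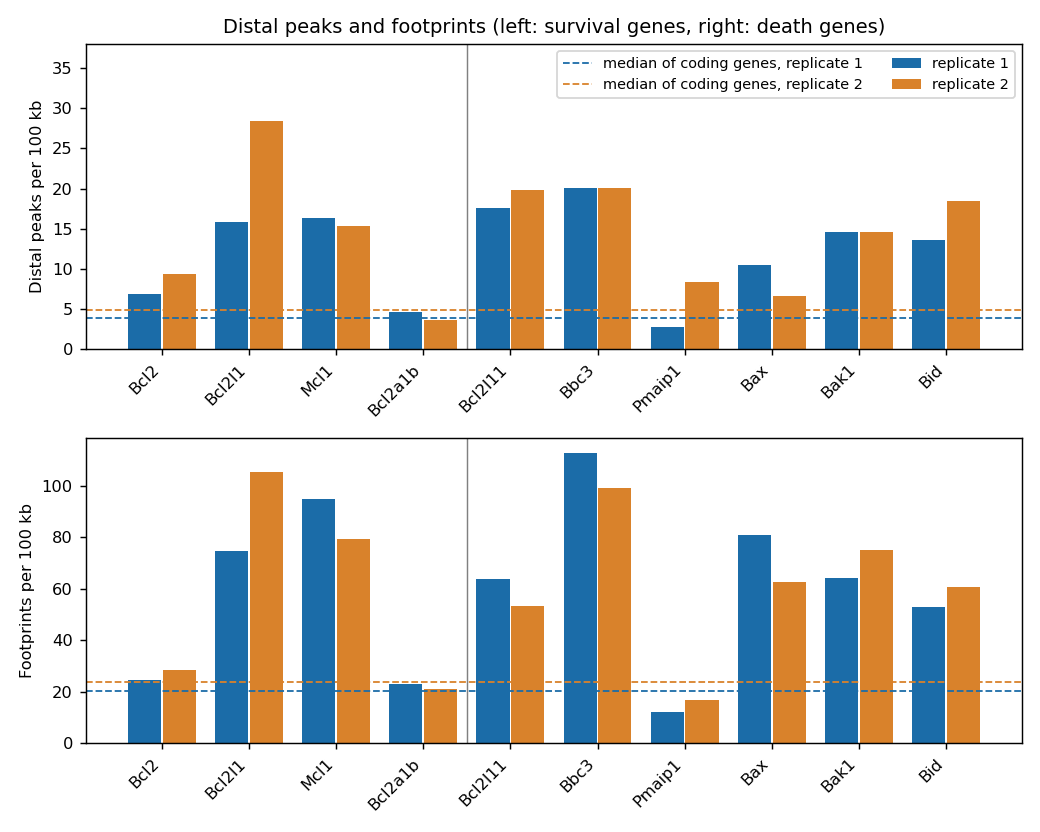
Distal peaks per 100 kb (upper) and footprints per 100 kb (lower) in the gene body and 50 kb on each side, by replicate, with dashed lines at the medians over 21701 coding genes. Bcl2l1, Mcl1 and Bbc3 are high in both panels, and Bcl2a1b and Pmaip1 are near or below the dashed lines in the lower panel.

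Most distal peaks of the family were found in both mice: 126 of 158 in replicate 1 (79.7%, 95% Wilson interval 72.8 to 85.3) and 123 of 193 in replicate 2 (63.7%, 56.7 to 70.2), against 72.7% and 61.5% of all distal peaks. The intervals cover counting error only. Peaks without a partner were weaker, with median percentiles of 36.1 and 33.7 against 64.3 and 66.1 for those with one. In replicate 2, 28 of the 70 unpartnered peaks belonged to Bcl2l1. Of the Pmaip1 distal peaks, all 3 in replicate 1 but 3 of 9 in replicate 2 had a partner. Of the Bax distal peaks, 7 of 11 in replicate 1 and all 7 in replicate 2 had one. Of the footprints, 53.5% and 53.4% were found in the other mouse, against 50.8% and 45.5% of all footprints.

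Motifs in distal peaks were searched in the 200 bp around the midpoint of each peak. The motif of STAT factors, TTCNNNGAA, which carry interleukin 7 signals, was in 14 of 158 and 15 of 193 distal peaks of the family. These are 8.86% and 7.77%, against 5.20% and 5.68% of all distal peaks. In survival genes the STAT motif was in 7 of 65 peaks in replicate 1 and 11 of 89 in replicate 2, and in death genes in 7 of 93 and 4 of 104. Overlapping peaks were counted separately. Most distal peaks were found in both mice and all were read from the same reference genome. The counts of the 2 replicates are therefore largely of the same sequences and are not independent. Bcl2l1 gave 43 of the 89, of which merging left 35. STAT was 1 of 20 strings searched, and not all are given here. The SP/KLF motif was in 8.86% and 5.70% of family peaks, against 5.18% and 4.03% of all distal peaks. In survival genes it was in 3.08% and 2.25%, and in death genes in 12.9% and 8.65%. The E-box of E proteins was in 22.2% and 16.6% of family peaks, against 20.9% and 16.4% of all distal peaks. Of motifs of thymocyte factors, RUNX (TGTGGT) was in 21.5% and 17.6% of family peaks against 22.0% and 19.9% of all distal peaks, ETS (CNGGAAGT) in 6.96% and 4.66% against 8.59% and 6.996%, and TCF/LEF (CTTTGAT) in 2.53% and 2.59% against 3.88% and 3.42%.

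Around the 10 genes, the rest of the pathway was also largely open. Of 13 other BCL2 family genes, 10 were open at the promoter in each mouse, against 58.6% of coding genes. The median of the mean percentiles of these 10 was 74.1, below the 91.7 of all coding genes open in both mice. The highest of them were Bcl2l12 (mean percentile 98.6), the BH3-only gene Bad (96.9) and Bcl2l13 (93.7). Bcl2l10 and Bcl2l15 had no promoter peak in either mouse, and Bok had 1 in replicate 2 only. All 10 genes of the caspase pathway had one in both, led by Apaf1, the scaffold of the apoptosome (99.6), Diablo, an antagonist of caspase inhibitors (99.4), and Cycs, the gene of cytochrome c (99.3). The median percentile of that list was 96.1, above the 95.2 of the death members and the 88.6 of the survival members, and its distal density was lower, at 6.60 per 100 kb. All 19 listed regulators of the family in thymocytes also had an open promoter in both, among them Stat5b, a transducer of interleukin 7 signals (95.8), and Trp53, the gene of p53 (93.1).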

How the data were processed

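Peaks, a false discovery rate track and footprints were made by the authors from each sample's own mm10 alignments, per the file listings deposited with each sample; the sources used here do not name the aligner, the callers, the read depth or how CAST/EiJ alleles were mapped. Column 7 of the longer deposited peak list is a signal, with an unknown factor per sample, so it was ranked within each replicate. The authors' track gives a p-value adjusted as a false discovery rate, for runs of bases under 0.05 only; in the footprint files the authors' p-value column is 0.01 throughout and was not used. The longer list was used, and the shorter as a stricter alternative.

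TSSs are those of GENCODE M21 (basic), and the background was 21701 autosomal and X-linked coding genes with a unique symbol (27 repeated symbols were dropped). Sharing between replicates needed 1 bp of overlap. Sequence came from GRCm38.p6 (mm10 coordinates, 1-based) and promoter windows from RefSeq. Motifs were exact strings on both strands; those of NF-kB, CTCF, p53 and the glucocorticoid receptor are given by name. The overlap and distance functions were tested on simulated data. Python 3.11.15, pandas 2.3.3, numpy 2.4.6 and statsmodels 0.14.6 were used.

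The members, lists and motifs were chosen with earlier results of these data known. All 10 members are named; of each pathway list, the 3 genes with the highest mean promoter percentile and those with no peak are named, except for a gene that is not reported here; the distal element named for each member has the highest lower percentile of both replicates. Bok, the runs of distal peaks and the Bcl2l1 stretch were chosen after their values were seen.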

Additional observations from a re-analysis of the deposited data

How the results depend on the processing

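The count of 10 members with a promoter peak in both replicates was the same at 100 and 2000 bp, in the shorter list, at the outermost TSS only and in either replicate alone. The promoter difference, survival minus death, of -6.58 percentile points was -9.78 in the shorter list and ran from -7.83 to -5.31 when either replicate was left out. The distal difference of -3.35 peaks per 100 kb was -1.63 in the shorter list, -1.60 for peaks over 2000 bp from every TSS and -6.85 in the gene body with no flank; it reversed to 0.77 with 25 kb of flank and to 0.48 without Bcl2a1b or without Bcl2, and ran from -4.16 to -2.75 when either replicate was left out. Merging overlapping peaks of a replicate, an alternative chosen after seeing the data, gave -3.15. The footprint difference of -7.20 per 100 kb was -12.4 with 100 kb of flank; it reversed to 2.04 with 25 kb and to 23.1 without Bcl2a1b or without Bcl2, and ran from -14.2 to -7.73 when either replicate was left out. With 4 survival genes, leaving 1 out moves the median to another gene; other causes were not tested. The share of distal peaks found in both replicates, 71.7% as the mean of both, was 51.5% with a reciprocal overlap of at least 50%. No paired analysis was possible because there is 1 group and no result comes from a test.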
